A study of Mus musculus with 7 samples.

Results

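A set of 10 genes of extracellular matrix and mesenchyme was followed through islets of young mice: Hmcn2, Hmcn1, Lrrc15, Kif26b, Postn, Fap, Fbn1, Fn1, Sparc and Vim. They are 10 of the 49315 mouse genes counted, and were found by matching gene IDs to symbols in all 7 libraries. The genes were chosen by their place in matrix and mesenchyme and, for several of them, by counts that separated the control from the knockout libraries. The difference between those groups is therefore given for them as a description. Calls printed for them below come from the contrast that helped to choose them and lend it no support. All 10 passed the filter on low counts.

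RNA was sequenced after removal of ribosomal RNA from pancreatic islets of mice aged 7 days. The control group was Nrf2lox/lox, in which Nrf2 is flanked by loxP sites and left intact, and comprised 3 libraries numbered 1, 2 and 4. The βNrf2KO group had a beta-cell specific deletion of Nrf2 and comprised 4 libraries numbered 1 to 4. The titles number single mice, but every library was a pool of RNA from 5 animals, so the p-values measure spread between pools. Neither the Cre driver nor the background strain is given in the sources used here.

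Fibroblasts, pericytes and other mesenchymal cells of the pancreas build the interstitial matrix in which islets sit, while endothelial cells and mesenchyme together supply the basement membrane of islet vessels. Fibronectin fibrils and fibrillin microfibrils form an early scaffold on which collagens and elastic fibres assemble, and matricellular proteins such as periostin and SPARC tune how cells hold to it. Hemicentins are very long, thread-like matrix proteins of the immunoglobulin superfamily that link tissues across basement membranes. None of these genes is a β-cell identity gene, and in RNA of whole islets fewer cells of a type and less RNA per cell cannot be told apart.

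The libraries held 18187382 to 25373105 counts with mitochondrial transcripts included, and on that total every control library was deeper than every βNrf2KO library. Nfe2l2, the gene of Nrf2, was read at 43.2 to 86.0 CPM (counts scaled to library size) in control and 57.8 to 67.3 CPM in βNrf2KO pools, which overlapped. Every exon and every islet cell type adds to this value, so it is no test of the deletion. The Cre sequence had 0 counts in the control pools and 23 to 73 in the βNrf2KO pools, so Cre and the deletion go together and cannot be told apart. Transcripts of mitochondrial DNA were 43.0% of counts in control pool 1, 51.8% in control pool 2 and 14.6% in control pool 4, against 10.02% to 27.7% in βNrf2KO pools. Endocrine markers such as the insulin genes summed to 31654, 22596 and 62482 CPM in control pools 1, 2 and 4. In βNrf2KO pools they summed to 41287 to 65188 CPM, so the labelled tissue was present in each pool. CPM values here are scaled by TMM, which sets libraries level on the bulk of their genes, with factors of 0.625 (control pool 2) to 1.31 (βNrf2KO pool 4). Library sizes so scaled were 17629427 and 15171539 in control pools 1 and 2, below the 18715562 to 27253482 of βNrf2KO pools. In control pool 4 the scaled size was 30142394, the largest. Control pools 1 and 2 thus stood apart in mitochondrial share, and the part of this share and of depth in the values below was not tested.

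Per kilobase of exon, the 10 genes spanned a wide range of levels. Sparc stood first at 203 ± 30.7 CPM per kilobase (SD, n = 7) and lay above 99.7% of the 19893 tested genes, and Vim followed at 67.4 ± 18.1, above 98.9%. Next came Fn1 at 14.4 ± 6.93, Fbn1 at 8.02 ± 2.36 and Postn at 6.81 ± 2.90. The remaining genes were low. Hmcn1 was read at 1.47 ± 0.908, Kif26b at 0.741 ± 0.286, Fap at 0.621 ± 0.258, Lrrc15 at 0.469 ± 0.329 and Hmcn2 at 0.443 ± 0.498 CPM per kilobase. Sparc exceeded Vim in 7 of 7 pools, by 3.07-fold on geometric average, and Vim exceeded Fn1 in 7 of 7 by 4.96-fold. Fn1 lay above Fbn1, and Fbn1 above Postn, in 6 of 7 pools each. From Hmcn1 downward the neighbours did not differ beyond their spread: the log2 ratio of Hmcn1 to Kif26b was 0.87 ± 1.02 (SD, n = 7), and that of Lrrc15 to Hmcn2 was 0.40 ± 2.38. The hemicentins and Lrrc15 are thus rare RNAs next to Sparc, which alone made up 48.1% to 59.7% of the counts of the 10 genes in every pool.

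The 3 genes whose pools did not overlap between groups were Hmcn2 and Kif26b, lower in βNrf2KO, and Lrrc15, higher. Across all tested genes 6.99% had pools that did not overlap, 3.80% lower and 3.19% higher, and since such separation helped to choose the 10 genes, nothing is read from the count. None of the 10 passed an adjusted p of 0.05 (edgeR quasi-likelihood test), nor did any tested gene (0.00%). At unadjusted p under 0.05 stood 4 of the 10, beside 8.46% of all tested genes: Hmcn2, Kif26b and Postn, which were lower (5.23% of all), and Lrrc15, which was higher (3.23% of all). Fitted values were lower for 7 of the 10 and for 50.6% of all tested genes. The median log2 fold change, βNrf2KO minus control, was -0.36 over the 10 genes and -0.01 over all tested genes. With the pool number as a block 1 of the 10 was called, Hmcn2, in a fit that called 14 genes (0.0704%). That fit rests on the pools numbered 1, 2 and 4, since βNrf2KO pool 3 has no control pool of its number. DESeq2 also called Hmcn2, as 1 of 2 genes (0.0101%). The same contrast helped to choose the 10 genes, so nothing is read from their p-values or calls.

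**Figure D1:**
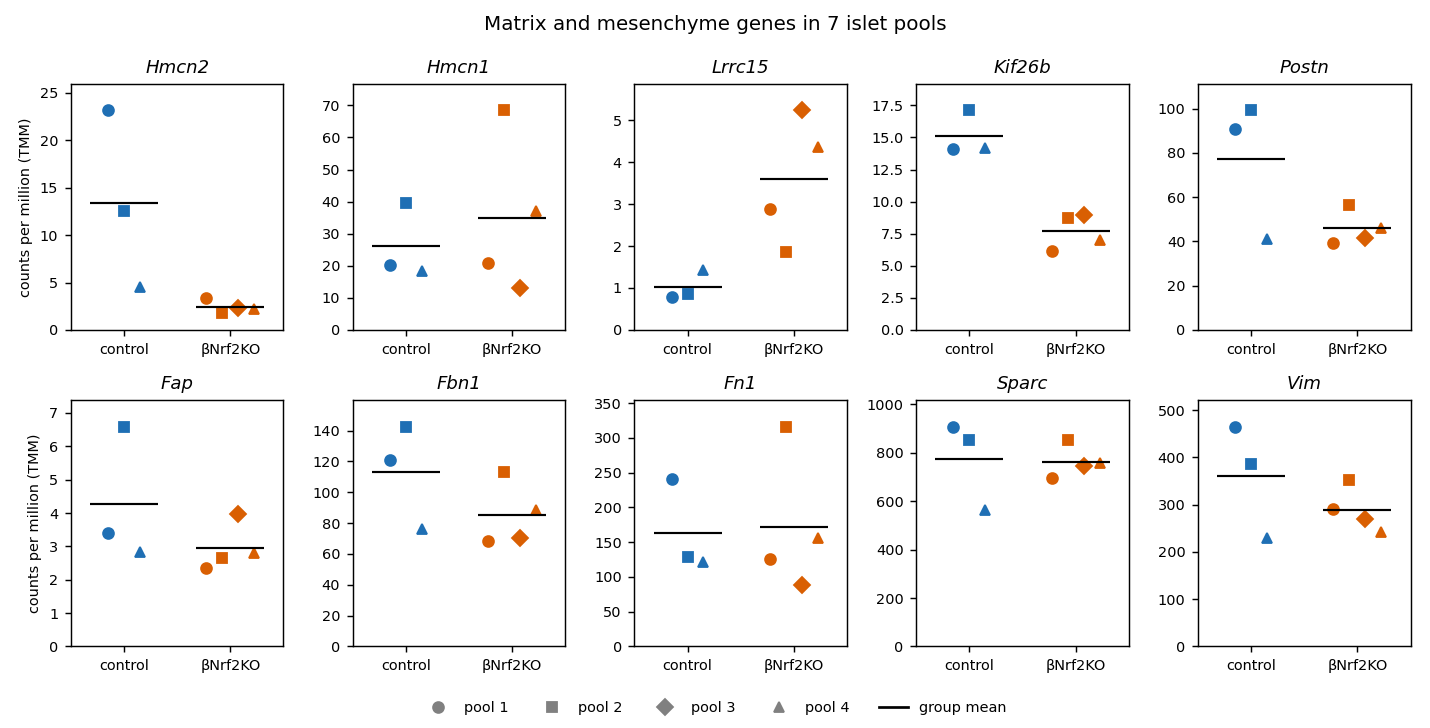
TMM-scaled CPM of the 10 genes in each of the 3 control (blue) and 4 βNrf2KO (orange) pools, linear axes from 0, symbols by pool number, lines at group means. Hmcn2 ranged from 4.55 to 23.2 CPM in control and from 1.78 to 3.37 CPM in βNrf2KO pools, while Sparc, Vim, Fn1 and Fbn1 overlapped.

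Hmcn2 encodes hemicentin 2 (ENSMUSG00000055632, chromosome 2, 31314415 to 31460738, plus strand, GRCm38) and its exons sum to 16073 bases in 99 separate blocks. It was read at 23.2, 12.5 and 4.55 CPM in control pools 1, 2 and 4, from 409, 190 and 137 counts. In βNrf2KO pools 1, 2, 3 and 4 it was read at 3.37, 1.78, 2.29 and 2.16 CPM, from 63, 38, 49 and 59 counts. The control pools were therefore spread widely while the βNrf2KO pools lay close together at the bottom, and the lowest control pool was 1.35 times the highest βNrf2KO pool. Group means were 13.4 ± 9.36 CPM (SD, n = 3) and 2.40 ± 0.681 CPM (SD, n = 4). Its fitted log2 fold change was -2.48 ± 0.45 (SE), a level 5.58-fold lower, and -2.23 ± 0.34 with the block. Within pairs of the same number the log2 difference was -2.75, -2.76 and -1.04 for numbers 1, 2 and 4. The difference was -1.82 without control pool 1 and -2.90 without control pool 4, and only in the latter case was the gene called among the fits that left out a pool.

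Hmcn1 encodes hemicentin 1 (ENSMUSG00000066842, chromosome 1, 150562524 to 150993435, minus strand), the longer paralogue, and its 21191 exon bases are the most of the 10 genes. It was read at 20.1, 39.7 and 18.3 CPM in control pools 1, 2 and 4, and at 20.9, 68.6, 13.1 and 37.1 CPM in βNrf2KO pools 1 to 4. The highest and the lowest pool were both βNrf2KO, so the groups overlapped, and the number 2 pools were the highest of each group. Its log2 fold change was 0.43 ± 0.54, but -0.13 without βNrf2KO pool 2 and 0.86 without control pool 2. Per length, the ratio of Hmcn2 to Hmcn1 was 1.52, 0.416 and 0.327 in the control pools and 0.212, 0.0342, 0.231 and 0.0770 in the βNrf2KO pools. Hmcn2 was the more abundant hemicentin per length in control pool 1 and the rarer one in the other 6 pools. No stretch of 50 bases of Hmcn2 transcripts occurs in transcripts of another gene in GENCODE M21, and 1.23% of such stretches of Hmcn1 do, none of them with Hmcn2.

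Lrrc15 encodes a leucine-rich repeat membrane protein that is known from matrix-producing fibroblasts and is induced by TGF-β (ENSMUSG00000052316, chromosome 16, 30269302 to 30283256, minus strand, 2 exon blocks). It was read at 0.794, 0.857 and 1.43 CPM in control pools 1, 2 and 4, from 14, 13 and 43 counts. In βNrf2KO pools 1, 2, 3 and 4 it was read at 2.89, 1.87, 5.24 and 4.37 CPM, from 54, 40, 112 and 119 counts. All βNrf2KO pools were above all control pools, with the lowest at 1.31 times the highest control pool. At 13 counts the exact 95% Poisson interval runs from 6.92 to 22.2 counts, so counting error alone is a large part of the control values. Such an interval covers counting error only and not the spread between pools, and the reads carry no molecular identifiers. The log2 fold change was 1.77 ± 0.42 (1.55 ± 0.34 with the block), which is 3.42-fold, and the pair differences were 1.75, 1.05 and 1.55. Leaving out each pool gave 1.54 to 2.12.

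Kif26b encodes a kinesin-like protein of embryonic mesenchyme that acts downstream of Wnt5a and the ROR receptors (ENSMUSG00000026494, chromosome 1, 178529125 to 178939200, plus strand). Its 3 control pools were read at 14.1, 17.1 and 14.2 CPM and its 4 βNrf2KO pools at 6.14, 8.69, 8.94 and 7.04 CPM. Both groups were tight, with a pooled SD within groups of 0.22 on the log2 scale, against a median of 0.36 over all tested genes. The lowest control pool was 1.57 times the highest βNrf2KO pool, the widest gap of the 3 separated genes. The log2 fold change was -0.97 ± 0.21, with pair differences between -1.18 and -0.97. Fits that each lacked a pool gave -1.05 to -0.88. An antisense gene, Gm16564, shares 6.19% of the Kif26b exons and held 1 to 11 counts per pool. Here too, reads of the overlap cannot be assigned without the strand setting.

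The starts of Hmcn2, Lrrc15 and Kif26b are shown because the pools of these 3 genes did not overlap between groups, and that of Hmcn1 as the paralogue of Hmcn2. The RefSeq start sites of all 4 lie within 83 bases of the gene starts in the files. Each line gives the 250 bases before the RefSeq start on the gene's own strand (GRCm38.p6), at chr2:31314082-31314331 for Hmcn2, chr16:30283255-30283504 for Lrrc15, chr1:178528875-178529124 for Kif26b and chr1:150993436-150993685 for Hmcn1. Capitals mark every match, on either strand, to TATAAA (the TATA box), TGANTCA (an AP-1 site), TGACNNNGC (the core of the antioxidant response element that Nrf2 binds), CAGAC (a SMAD-type element) and CCAAT.
Hmcn2: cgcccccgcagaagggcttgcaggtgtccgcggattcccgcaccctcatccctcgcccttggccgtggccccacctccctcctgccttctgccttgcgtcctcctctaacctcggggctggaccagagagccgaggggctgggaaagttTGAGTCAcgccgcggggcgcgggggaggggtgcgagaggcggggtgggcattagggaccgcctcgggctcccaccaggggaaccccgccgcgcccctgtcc
Lrrc15: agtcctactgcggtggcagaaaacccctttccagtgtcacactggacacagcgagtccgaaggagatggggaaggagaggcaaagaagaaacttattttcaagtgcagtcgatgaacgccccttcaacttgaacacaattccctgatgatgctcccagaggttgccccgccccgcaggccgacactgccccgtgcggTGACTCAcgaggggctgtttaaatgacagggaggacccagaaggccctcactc
Kif26b: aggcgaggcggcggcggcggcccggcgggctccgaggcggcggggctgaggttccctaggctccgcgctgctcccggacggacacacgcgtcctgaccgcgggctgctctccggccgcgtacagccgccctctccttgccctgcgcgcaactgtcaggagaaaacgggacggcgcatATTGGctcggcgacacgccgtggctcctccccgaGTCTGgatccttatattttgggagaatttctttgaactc
Hmcn1: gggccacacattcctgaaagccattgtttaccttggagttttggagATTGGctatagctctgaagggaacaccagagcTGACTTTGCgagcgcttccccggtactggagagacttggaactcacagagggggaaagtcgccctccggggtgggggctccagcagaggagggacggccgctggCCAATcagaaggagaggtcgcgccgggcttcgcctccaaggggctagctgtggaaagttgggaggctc
TGANTCA and TGACNNNGC share their opening letters, and the strand partner of CCAAT is ATTGG. Hmcn2 and Lrrc15, which differed in opposite directions, each held 1 TGANTCA match, 101 and 53 bases before the start. The motif occurs in 6.75% of 32851 RefSeq promoters of the same length, and in no other promoter among the members matched. TGACNNNGC was matched once in Hmcn1, 172 bases before its start, and once before the upstream of 2 Postn starts, at 138 bases. It occurs in 10.2% of all promoters, and neither Hmcn2, Lrrc15 nor Kif26b held it. Kif26b and Hmcn1 held CCAAT, 1 and 2 matches, which occurs in 33.8% of all promoters. Kif26b also held 1 CAGAC (42.2% of all), and TATAAA (12.4% of all) was in none of these 4. Among the members 8 had a RefSeq entry, with 9 starts in all, and Fap and Fn1 had none. The upstream of Kif26b held 32 CpG dinucleotides and that of Hmcn2 22, against a median of 6 over all promoters, while Hmcn1 and Lrrc15 held 11 each. A match is a run of letters and not a measured site.

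Postn encodes periostin, a matricellular protein that binds collagen and integrins in remodelling tissue (ENSMUSG00000027750, chromosome 3, 54361109 to 54391037, plus strand). It was read at 90.8, 99.4 and 41.1 CPM in control pools 1, 2 and 4 and at 39.3, 56.7, 41.4 and 46.2 CPM in βNrf2KO pools 1 to 4. Control pools 1 and 2 were high and control pool 4 fell among the βNrf2KO pools, so the groups overlapped. The log2 fold change was -0.75 ± 0.27, with pair differences of -1.20, -0.81 and 0.17. It was -0.52 without control pool 2 and -1.05 without control pool 4.

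Fap encodes fibroblast activation protein, a membrane serine protease of activated fibroblasts (ENSMUSG00000000392, chromosome 2, 62500943 to 62574075, minus strand). It was read at 3.40, 6.59 and 2.82 CPM in control and at 2.35, 2.66, 3.98 and 2.79 CPM in βNrf2KO pools, from 44 to 100 counts a pool. Control pool 2 alone stood above all βNrf2KO pools. The log2 fold change of -0.52 ± 0.34 became -0.08 without that pool.

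Fbn1, fibrillin 1 of the microfibrils (ENSMUSG00000027204, chromosome 2, 125300594 to 125507993, minus strand), was read at 121, 143 and 75.9 CPM in control pools. The βNrf2KO pools were read at 68.6, 113, 70.6 and 88.8 CPM, inside or just under the control range. The log2 fold change was -0.41 ± 0.24, with pair differences of -0.82, -0.34 and 0.23. It was -0.21 without control pool 2 and -0.63 without control pool 4. An antisense gene, Gm9913, covers 20.1% of the Fbn1 exons and held 0 to 3 counts per pool, and reads of that overlap cannot be assigned without the strand setting.

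Fn1, fibronectin 1 (ENSMUSG00000026193, chromosome 1, 71585520 to 71653200, minus strand), was read at 241, 128 and 122 CPM in control and at 126, 316, 87.8 and 156 CPM in βNrf2KO pools. As for Hmcn1, the highest and the lowest pool were βNrf2KO pools 2 and 3. The log2 fold change was 0.07 ± 0.41, from -0.41 without βNrf2KO pool 2 to 0.45 without control pool 1. Pair differences of -0.93, 1.30 and 0.35 did not share a sign. The SD within groups, 0.69 on the log2 scale, was above that of 86.2% of tested genes, and that of Hmcn1, 0.88, above 93.7%.

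Sparc encodes a collagen-binding matricellular protein that endothelial cells also make in quantity (ENSMUSG00000018593, chromosome 11, 55394500 to 55423183, minus strand). Its pools were read at 908, 854 and 565 CPM in control and at 695, 853, 745 and 758 CPM in βNrf2KO islets. Control pool 4 was the lowest of all 7, and the log2 difference was -0.02 ± 0.19, with a sign that turned with the block (0.01) and with limma-voom. Vim, vimentin, the intermediate filament of mesenchymal and endothelial cells (ENSMUSG00000026728, chromosome 2, 13573927 to 13582826, plus strand), was read at 465, 385 and 230 CPM in control pools. The βNrf2KO pools were read at 290, 353, 269 and 243 CPM, all within the control range. The log2 difference was -0.32 ± 0.23, and it was -0.09 without control pool 1 and -0.56 without control pool 4.

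**Figure D2:**
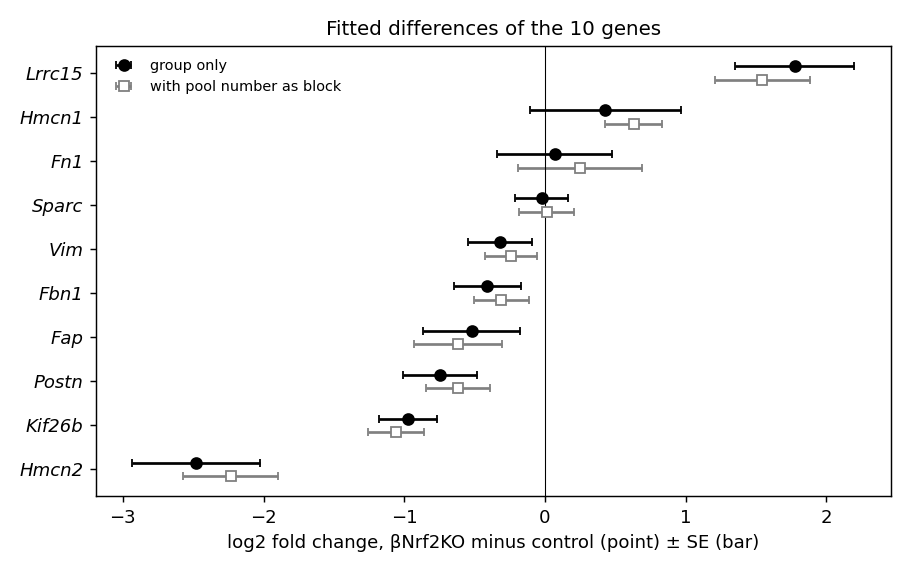
Fitted log2 fold change (βNrf2KO minus control) of the 10 genes with its standard error, for the group-only fit (filled) and the fit blocked on pool number (open). The blocked fit draws on pool numbers 1, 2 and 4 only. Hmcn2 lies at -2.48, Kif26b at -0.97 and Lrrc15 at 1.77, and the bars of Hmcn1, Fn1 and Sparc in the group-only fit include 0.

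Profiles over the 7 pools were set side by side after each gene was centred on its own mean log2 CPM, and their root-mean-square distance was taken in log2 units. The closest pairs among the 10 were Postn with Fbn1 (0.20) and Sparc with Vim (0.20). Hmcn2 and Lrrc15 lay farthest apart of all pairs (2.13), and Hmcn2 and Hmcn1 came next (1.60). Pools of Hmcn2 and Lrrc15 separated in opposite directions, and such separation helped to choose the 10 genes. Nothing is therefore read from the distance between Hmcn2 and Lrrc15. Outside the list, 12766 expressed genes were searched for the 3 nearest profiles to each. For Hmcn2 these were Itm2a (0.47), Cxcl2 (0.53) and the mitochondrial transfer RNA mt-Tm (0.56), and for Lrrc15 they were Arhgap36 (0.43), Gpx2 (0.45) and Gcnt1 (0.45). Those of Hmcn1 were Cxcl12 (0.30), Frem1 (0.31) and Ikzf1 (0.35). Closer matches were found for the steadier genes. Kif26b was nearest to Ccdc138 (0.12), Ccdc60 (0.17) and Trpv2 (0.17), and genes near Postn included Pou2f2 (0.12) and Ccdc80 (0.13). Fap had Mboat1 (0.11), Zbtb42 (0.12) and Sox10 (0.14), and Fbn1 had Zcchc24 (0.09), Angptl2 (0.09) and Mxra8 (0.10). Fn1 had Cdh11 (0.25), Ltbp1 (0.26) and Slc16a1 (0.30), Sparc had Spata1 (0.07), Wdr78 (0.08) and Supt20 (0.09), and Vim had Ppp1r18 (0.07), Antxr2 (0.07) and Fstl1 (0.08). With 7 points many genes share a profile, so these are descriptions of likeness.

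Markers of fibroblasts (Pdgfra, Col1a1, Col1a2, Col3a1, Dcn, Lum, Dpt, Mmp2, Thy1 and Islr), none of them among the 10 genes, moved with several of these values. All 10 markers were detected in every pool, and 10 of 10 had a lower mean in βNrf2KO. Their sum was 1462, 1166 and 474 CPM in control pools 1, 2 and 4 and 507, 893, 426 and 537 CPM in βNrf2KO pools 1 to 4. The groups overlapped (exact two-sided permutation p = 0.229 over 35 splits, adjusted p = 0.367 over 9 marker lists, where 0.0571 is the smallest p possible). Control pools 1 and 2 had the highest fibroblast sums and the highest Hmcn2, Postn and Vim, and control pool 4 had a fibroblast sum within the range of the βNrf2KO pools.

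Set against that sum, Postn kept the narrowest range of the 10 genes. It took 62.1 to 97.2 CPM for each 1000 CPM of fibroblast markers across the 7 pools. Control pools averaged 78.0 ± 13.8 (SD, n = 3), βNrf2KO pools averaged 81.1 ± 14.2 (SD, n = 4), and the groups overlapped. Other genes did not stay as level. Sparc averaged 849 ± 303 in control and 1371 ± 325 in βNrf2KO pools, a 2.81-fold range over all pools. Fn1 averaged 177 ± 74.4 and 275 ± 63.1, and Vim 378 ± 93.5 and 513 ± 108. Hmcn1, Fap and Fbn1 also had higher βNrf2KO means, and the groups overlapped for each of these genes. Hmcn2 took 15.9, 10.7 and 9.60 CPM per 1000 in control pools 1, 2 and 4 and 6.63, 1.99, 5.38 and 4.03 in pools 1 to 4 of βNrf2KO, with no overlap between groups. Lrrc15 took 0.543, 0.735 and 3.01 in control and 5.69, 2.09, 12.3 and 8.13 in βNrf2KO pools, so that control pool 4 lay above βNrf2KO pool 2. Kif26b took 9.62, 14.7 and 30.0 in control and 12.1, 9.73, 21.0 and 13.1 in βNrf2KO pools, which overlapped. On this scale 1 of the 10 genes, Hmcn2, had groups that did not overlap, beside 2.18% of all tested genes. The same counts helped to choose the gene, so nothing is read from this separation. The part of fibroblast content in the differences of all 10 genes was not tested.

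**Figure D3:**
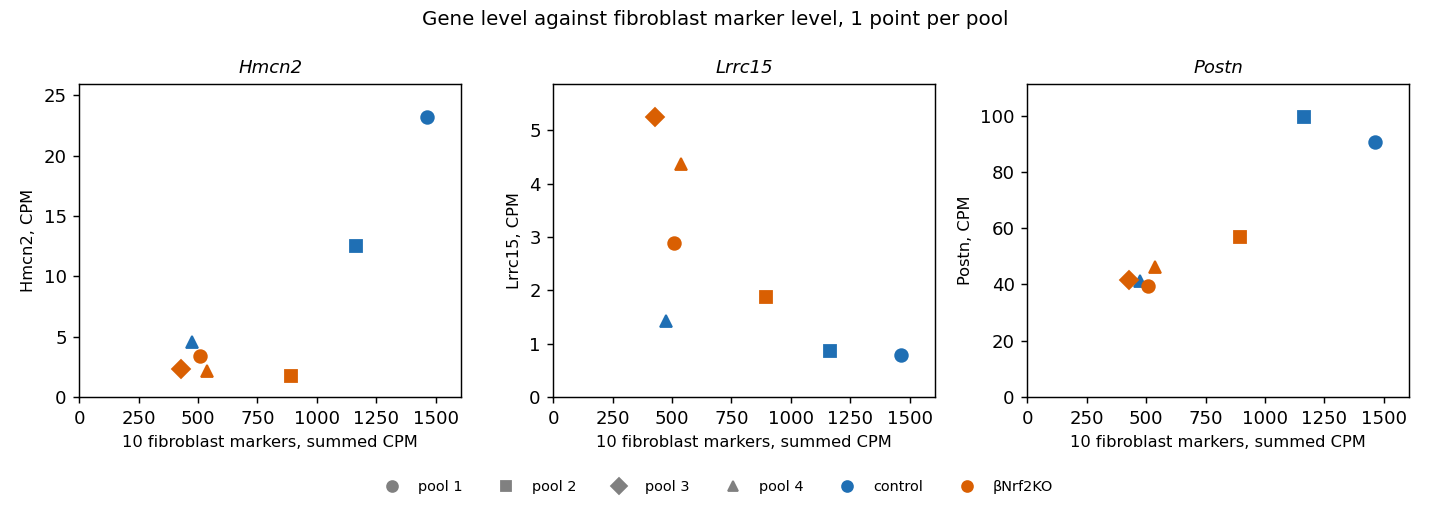
Hmcn2, Lrrc15 and Postn (vertical axes, CPM) against the summed CPM of 10 fibroblast markers (horizontal axis) in each pool, with control in blue, βNrf2KO in orange and symbols by pool number. Control pool 4, at 474 CPM of fibroblast markers, sits beside βNrf2KO pools for Postn, while Hmcn2 there was 4.55 CPM.

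Other cell types were read in the same way. Pericyte and smooth muscle markers summed to 676 to 1820 CPM in control and 605 to 909 CPM in βNrf2KO pools, with 8 of 8 lower on average, and Schwann cell markers to 41.7 to 78.5 and 35.4 to 41.8 CPM, with 6 of 6 lower. Endothelial markers ran from 1076 to 1262 CPM in control and from 1153 to 1520 CPM in βNrf2KO pools, with 6 of 7 higher. Macrophage markers ran from 39.0 to 77.1 and 36.7 to 49.7 CPM, with 6 of 7 lower and Cd163 at 0 in at least 1 pool. Mesothelial markers ran from 29.2 to 56.9 and 28.7 to 49.7 CPM, with 5 of 6 lower. Ductal markers ran from 119 to 186 and 185 to 249 CPM, with 5 of 6 higher. Acinar markers ran from 59.3 to 385 and 50.7 to 212 CPM, with 9 of 10 lower and Pnlip, Amy2a5 and Ptf1a at 0 in at least 1 pool. None of the 9 lists passed (smallest adjusted p = 0.257, exact permutation test), a level this design could not have brought under 0.05. The part of these cell types in the values of the 10 genes was not tested.

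Partner genes were taken from 9 lists that hold none of the 10. Of 158 partner genes tested, 0 passed an adjusted p of 0.05 (0.00% of all tested genes) by edgeR, and 0 with the block, by DESeq2 or by limma-voom. At unadjusted p under 0.05 were 24 (15.2%), beside 8.46% of all tested genes, and 9 (5.70%) had pools that did not overlap, beside 6.99%. Their median log2 fold change was -0.26. Control pool 2 held the highest value of 71 of the 158 genes (44.9%), against 26.4% of all tested genes, and control pool 1 that of 36 (22.8%, against 14.3%).

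Microfibril and elastic fibre genes, the partners of fibrillin, had lower fitted values in 21 of 23. Their median log2 fold change was -0.43, and 0 passed in either direction. Fbln2, a fibulin of elastic fibres and basement membranes, differed by -0.67 ± 0.19, from 61.1 ± 16.1 CPM (SD, n = 3) in control to 38.3 ± 3.32 CPM (SD, n = 4). Ltbp3, which holds latent TGF-β in the matrix, differed by -0.54 ± 0.19, and the elastic fibre glycoprotein Emilin1 by -0.63 ± 0.23 (edgeR adjusted p = 0.571 for each named partner gene unless another is given). The median was -0.61 without control pool 4 and -0.24 without control pool 2, and -0.40, -0.36 and -0.02 within pairs 1, 2 and 4.

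The small leucine-rich proteoglycans, which bind collagen fibrils, were lower in 10 of 10 fitted values, with a median of -0.77, and 0 passed. Ecm2 differed by -0.93 ± 0.27 and its pools did not overlap. Asporin, Aspn, differed by -0.89 ± 0.30. Decorin, Dcn, which is also among the fibroblast markers, differed by -1.55 ± 0.54, with 102, 48.5 and 17.6 CPM in control pools and 28.6, 22.6, 11.2 and 14.0 CPM in βNrf2KO pools. The list median was -1.02 in pair 1, -0.14 in pair 2 and -0.12 in pair 4, and it was -0.46 without control pool 1 and -0.50 without control pool 2.

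Basement membrane genes, neighbours of the hemicentins, were lower in 23 of 28 fitted values with a median of -0.19, and 0 passed. Col4a5 differed by -1.14 ± 0.44, the laminin chain Lamb2 by -0.66 ± 0.27 and agrin, Agrn, by -0.63 ± 0.26, and each of them overlapped between groups. Pair 4 had a median of 0.05 against -0.13 and -0.32 in pairs 1 and 2, and the list median was -0.07 without control pool 2 and -0.31 without control pool 4. Matricellular genes, the class of periostin and SPARC, were lower in 13 of 21, with a median of -0.27 and 0 passed. The pairs did not share a sign, with medians of -0.40, 0.22 and 0.11, and the list median was -0.16 without control pool 1, -0.17 without control pool 2 and -0.42 without βNrf2KO pool 2. Spock1, a proteoglycan of the SPARC family, had higher pools in βNrf2KO with no overlap (103, 116, 144 and 146 CPM against 70.4, 51.0 and 97.6 CPM) and differed by 0.80 ± 0.22. Spon1 differed by -0.53 ± 0.22 and Comp by -0.98 ± 0.47.

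Receptors and binding partners of fibronectin were higher in 8 of 13 fitted values, with a median of 0.05 that turned without control pool 4 (-0.01), and 0 passed. The integrin chain Itgb8, which activates latent TGF-β, differed by 0.76 ± 0.23 with no overlap between groups, Itgb6 by 0.92 ± 0.47 and the transglutaminase Tgm2 by -0.51 ± 0.23. Genes of the TGF-β axis had a median of -0.02, with 8 of 15 lower and 0 passed, and the sign turned without control pool 1 (0.10) and with limma-voom. In it the ligands Tgfb2 and Tgfb3 differed by -0.51 ± 0.21 and -0.73 ± 0.31, and the receptor Tgfbr1 by 0.41 ± 0.23 (edgeR adjusted p = 0.585).

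Genes of Wnt5a, ROR and planar polarity signalling, the setting of Kif26b, were lower in 17 of 23 fitted values, with a median of -0.26 and 0 passed. The ligand Wnt11 differed by -1.42 ± 0.50 with no overlap, at 2.19 ± 0.62 CPM (SD, n = 3) and 0.804 ± 0.489 CPM (SD, n = 4). Daam2 differed by -0.82 ± 0.35 and the non-muscle myosin Myh10 by -0.53 ± 0.23, and the list median was -0.05 without control pool 2. Intermediate filament genes beside vimentin were lower in 15 of 17, with a median of -0.34 (-0.21 without control pool 2) and 0 passed. Pair 1 had a median of 0.03 with 8 of 17 lower, and pairs 2 and 4 had medians of -0.58 and -0.23. The genes of this list with the smallest p were Prph (-1.09 ± 0.28), Synm (-0.86 ± 0.26) and Nefl (-1.05 ± 0.36). Prph and Nefl are filaments of peripheral neurons and Synm is one of muscle. The part of such cells in these values was not tested. Peptidases related to FAP were higher in 5 of 8 fitted values and 0 passed. Their median of 0.09 was 0.00015 without βNrf2KO pool 3, 0.0011 without control pool 2 and 0.14 without control pool 4. Prepl differed by 0.44 ± 0.21, Dpp8 by 0.26 ± 0.16 (edgeR adjusted p = 0.598) and Dpp9 by -0.12 ± 0.15 (edgeR adjusted p = 0.779).

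**Figure D4:**
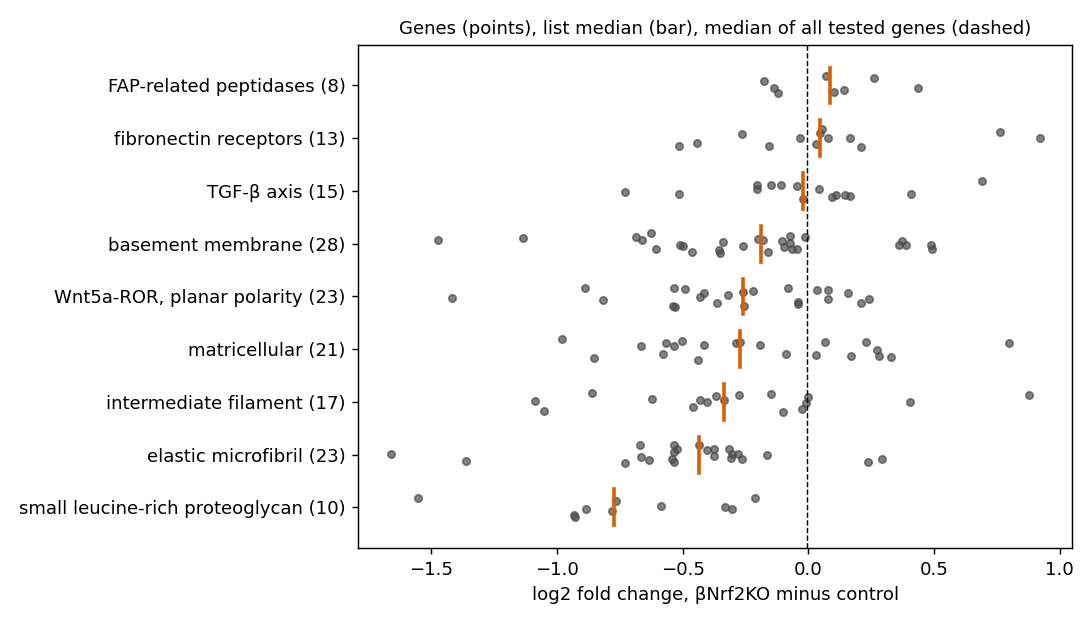
Fitted log2 fold change (βNrf2KO minus control) of the partner genes in 9 lists, with the number tested in brackets, orange bars at list medians and a dashed line at the median of all tested genes. The medians run from -0.77 for small leucine-rich proteoglycans to 0.09 for peptidases related to FAP, and 0 of the genes passed the threshold.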

How the data were processed

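RNA of 7 pools was measured, 3 control and 4 βNrf2KO, grouped by their labels. The authors deposited unnormalized counts for each gene. Their tools were featureCounts (Subread 1.5.2) on STAR 2.5.2b alignments, after bcl2fastq 2.20 and Trimmomatic 0.36, per the submitters' processing notes. Strand setting and annotation release are not given in the sources used here. A newer build is named there, but 91.4% of 49056 gene IDs shared with GENCODE M21 have the same span, so coordinates are GRCm38 as in the files. Cre, 1 of 49316 entries, stayed out of library sizes. A count of 0 allows up to 3 counts, 0.118 to 0.165 CPM.

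Genes were fitted with edgeR 4.0.16 in R 4.3.3 (TMM, filterByExpr, robust quasi-likelihood, Benjamini-Hochberg over 19893 genes, threshold 0.05). SE was derived from the test, as the absolute log2 fold change over the square root of the quasi-likelihood F statistic. The log2 CPM values used a prior count of 2. Marker sums were compared by an exact permutation test, two-sided by doubling the smaller tail. On simulated data the fit recovered 40.0% of genes changed 2-fold and 91.0% of those changed 4-fold among 19893 genes, with 11 false calls. Changes were placed only in genes above a low level of expression. Counts were drawn independently for each gene, without variation shared by the genes of a pool, so recovery in the real pools may be lower.

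After removal of group means, same-numbered pools had a correlation across genes of r = 0.376, 0.229 and 0.323 for numbers 1, 2 and 4, so the numbers were taken to pair the samples, although control pool 4 and βNrf2KO pool 3 reached 0.241. The source of this pairing is the data alone, since the labels do not say what a number stands for. A fit blocked on the pool number was an alternative, beside RLE normalization, library sizes without the mitochondrial genome, 2 other filters, DESeq2 1.42.0, limma-voom (limma 3.58.1) with quality weights, a threshold of 0.1 and leaving out each pool. In the blocked fit βNrf2KO pool 3 has no control partner, so it adds nothing to the group difference.

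The genes and lists were chosen with earlier results of these data known. Named by rule were the 10 genes, the 3 genes with the smallest p per list and the 3 nearest profiles per gene among symbols of at least 1 log2 CPM that are not predicted genes, of which 1 is not reported here.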

Additional observations from a re-analysis of the deposited data

How the results depend on the processing

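The number of genes past an adjusted p of 0.05 was 0 in the main edgeR analysis, 2 with DESeq2 and 14 with the pool number as a replicate block (1 of the latter higher and 13 lower). It ranged from 0 to 1 when each pool was left out, the 1 being Hmcn2 without control pool 4. At unadjusted p under 0.05 stood 1683 genes, 474 without control pool 2, 780 without βNrf2KO pool 3, 820 without βNrf2KO pool 4, 2893 without control pool 1 and 3446 without control pool 4. Among the partner genes 0 passed under every alternative run, the threshold of 0.1 included. The block changed no call among the 10 genes other than that of Hmcn2. Leaving out each pool gave log2 fold changes of -2.90 to -1.82 for Hmcn2 (SE 0.45 in the main fit) and -0.76 to -0.08 for Fap (SE 0.34). The same fits gave 1.54 to 2.12 for Lrrc15 (SE 0.42) and -1.05 to -0.88 for Kif26b (SE 0.21). Postn, Fap, Fbn1 and Vim kept their sign under every alternative run. So did Hmcn2, Lrrc15 and Kif26b, but their pools did not overlap between groups. Leaving out a pool could hardly turn their sign, and such separation helped to choose the genes, so nothing is read from it. Hmcn1 turned without βNrf2KO pool 2, Fn1 without control pools 2 or 4 or βNrf2KO pool 2, and Sparc with the block, with limma-voom and without control pools 1 or 2 or βNrf2KO pool 1. When each pool was left out, the log2 difference of acinar markers ranged from -1.34 to 0.012 and that of mesothelial markers from -0.24 to 0.24, and the cause was not tested. Lrrc15 had 13 to 43 counts in control pools, so counting error widens its values there.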
